A study of Mus musculus with 6 samples.

Results

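Chromosome contacts were examined at 10 gene loci that fibroblasts are known for: Col1a1, Col1a2, Col3a1, Fn1, Postn, Dcn, Vim, Acta2, Tagln and Twist1. Each locus is the 1 Mb bin of the mouse build mm9 that was assigned to the gene, so the members are 10 of the 2666 bins of the position key. The rule takes the bins by gene name. The contacts were measured by Hi-C, in which crosslinked chromatin is cut, here with HindIII, ligated in dilution and sequenced in pairs. The material was mouse embryonic fibroblasts, primary cells grown from embryos, of a 129xCast hybrid background, from 2 embryos with 3 technical replicates each (6 samples in 1 group, no treatment). The data were 1 pooled map, and which of the libraries it holds is not stated. No value therefore has a replicate, and the intervals given cover counting error only. The name of the deposited table can be read as contacts with a Cast and a 129 end, which the labels do not state. If so, contacts with both ends from the same parent are absent from every value below. A contact map holds no RNA, so neither the labelled cell type nor the activity of these genes was checked.

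The fibrillar collagens form the tensile fibres of connective tissue. Col1a1 and Col1a2 encode the chains that assemble into type I collagen, and Col3a1 encodes type III collagen. Fibronectin (Fn1), periostin (Postn) and decorin (Dcn) bind to collagen or to cells in the matrix, vimentin (Vim) builds intermediate filaments, smooth muscle actin (Acta2) and transgelin (Tagln) belong to the contractile apparatus of myofibroblasts, and Twist1 is a transcription factor of mesenchymal cells. Chromatin of a mammalian nucleus separates into compartments, in which active and inactive regions each meet their own kind, also between chromosomes. Genes used together by a cell have been proposed to meet in space, and contacts among these loci address whether that is visible here.

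The bins lay on 9 autosomes, with Col3a1 and Fn1 both on chromosome 1. The fibrillar collagen bins were chromosome 11 from 94000001 to 95000000 (Col1a1), chromosome 6 from 4000001 to 5000000 (Col1a2) and chromosome 1 from 45000001 to 46000000 (Col3a1). The other matrix genes were represented by chromosome 1 from 71000001 to 72000000 (Fn1), chromosome 3 from 54000001 to 55000000 (Postn) and chromosome 10 from 96000001 to 97000000 (Dcn). The cytoskeleton genes were represented by chromosome 2 from 13000001 to 14000000 (Vim), chromosome 19 from 34000001 to 35000000 (Acta2) and chromosome 9 from 45000001 to 46000000 (Tagln), and Twist1 by chromosome 12 from 34000001 to 35000000. A bin of this size can hold other genes as well. The neighbours below are given by gene order alone, and whether they share the bin of the gene was not determined. In RefSeq's order of protein-coding genes on GRCm38.p6, the fibrillar collagen gene Col5a2 follows Col3a1, and Lum, a proteoglycan gene related to decorin, follows Dcn. Neighbours on either side were Gm11544 and Sgca for Col1a1, Bet1 and Casd1 for Col1a2, Atic and Mreg for Fn1, Trpc4 and Supt20 for Postn, Trdmt1 and St8sia6 for Vim, Stambpl1 and Fas for Acta2, Pcsk7 and Sidt2 for Tagln, and Ferd3l and Hdac9 for Twist1.

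The promoters of Col3a1 and Postn are shown because their bins stood furthest apart from the bins around them in the compartment ratio described further on. Both are the 250 bases before a RefSeq transcription start on GRCm38.p6, a build other than that of the map, at chr1:45311288-45311537 and chr3:54360857-54361106, both on the plus strand. Capitals mark the HindIII recognition site, AAGCTT, at which the assay cuts.
Col3a1: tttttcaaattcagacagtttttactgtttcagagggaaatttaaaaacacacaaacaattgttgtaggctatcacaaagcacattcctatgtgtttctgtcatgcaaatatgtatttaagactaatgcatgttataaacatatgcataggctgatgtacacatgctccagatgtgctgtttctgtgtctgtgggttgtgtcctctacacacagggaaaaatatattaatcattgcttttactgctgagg
Postn: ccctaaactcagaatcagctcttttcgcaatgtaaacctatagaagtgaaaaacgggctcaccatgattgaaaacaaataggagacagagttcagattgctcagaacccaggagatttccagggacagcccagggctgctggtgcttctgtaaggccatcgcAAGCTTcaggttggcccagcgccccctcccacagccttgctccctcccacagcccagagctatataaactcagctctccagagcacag
The site reads the same on both strands. It occurred in this Postn window and in 0 of the other 6 windows found for 6 of the 10 genes. Those without a site include the window of another Postn start, at chr3:54359017-54359266. The site occurred in 6.22% of all 32851 promoter windows of the same length. The map resolves contacts to 1 Mb, so it gives no value for a promoter itself.

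Coverage differed widely among the loci. The map held 1955525 contacts between different bins, recovered as whole numbers from the balanced signal. Bins that kept at least 50% of the median number of listed partners on other chromosomes (1087) were used, which left 2341 bins with a median of 1684 contacts and a range of 669 to 2869. The Postn bin had 2518 contacts, above 99.6% of the kept bins. Fn1 had 2118 contacts, Dcn 2067, Vim 2041, Acta2 2029 and Col1a2 1958, all in the upper part of the distribution. Col3a1 had 1182 contacts, Col1a1 947 and Tagln 926, at percentiles 14.1, 5.30 and 4.74. The Twist1 bin had 352 contacts and 309 listed partners, did not pass the filter and is described only from a fit of all 2573 bins that held contacts. The 9 other bins carried the comparisons. How many reads of a bin can be assigned to a parent depends on sequence differences and HindIII sites, which were not tested here. Across all kept bins the number of contacts and the compartment ratio below had a Spearman's rho of −0.0188, given as a description.

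**Figure D1:**
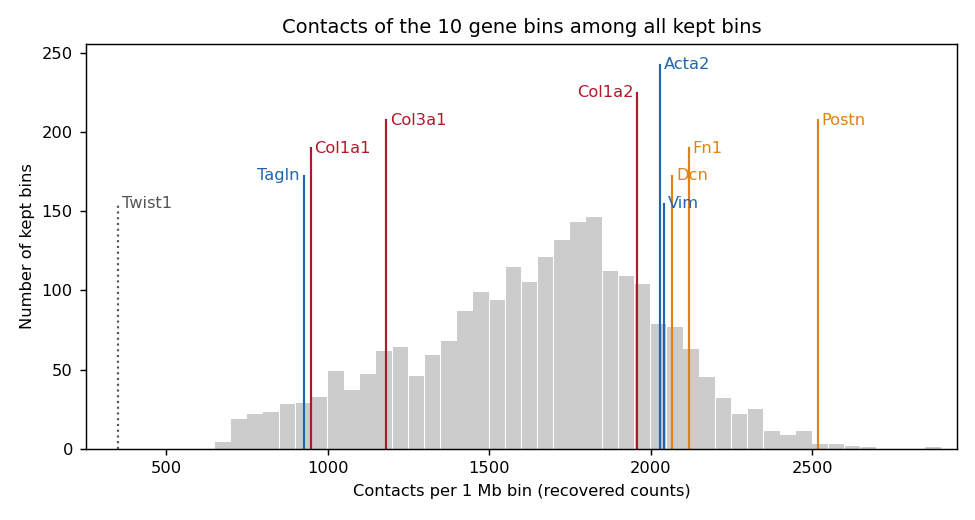
Contacts per 1 Mb bin on the x axis and number of kept bins on the y axis (grey bars), with a line for each gene bin coloured by role (red, fibrillar collagens; orange, other matrix genes; blue, cytoskeleton genes; dotted grey, Twist1, which was not kept). Twist1 lies left of all kept bins at 352 contacts, Tagln and Col1a1 near the low edge, and Postn at 2518 near the high edge.

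Of the 9 loci, those of Col1a1 and Col3a1 met high-score partner bins more often and low-score partners less often than expected, and the other 7 did not pass the test on either side. The score was the first eigenvector of contacts between chromosomes, made anew without the chromosome of each tested bin, so that the contacts of a bin did not enter the score of its partners. The compartment ratio is the observed over expected number of contacts with the highest 20% of partners, divided by the same for the lowest 20%. Expected contacts are the product of 2 factors, 1 for each bin, chosen so that every bin keeps its number of contacts between chromosomes. The high side was set as the side on which chromosome 11 lies above X. It was not set by genes, so neither side is called active.

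The Col1a1 bin had 220 contacts with high-score partners, where 169.9 were expected, and 131 with low-score partners, where 169.5 were expected. Its ratio was 1.68, or 0.74 on the log2 scale (95% interval 0.43 to 1.07; exact binomial test, Benjamini-Hochberg adjusted over 2341 bins, adjusted p = 6.6e-05). It lay above 98.6% of all kept bins and above 96.7% of the 123 bins within 10% of its coverage. The excess came from both ends of the score. In steps of 20% of partners from the lowest score to the highest, observed/expected was 0.773 (0.646 to 0.917), 0.967, 0.990, 0.972 and 1.30 (1.13 to 1.48), so that the 3 inner steps were close to 1.

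The Col3a1 bin had 253 contacts with high-score partners, where 203.5 were expected, and 168 with low-score partners, where 207.4 were expected. Its log2 ratio was 0.62 (0.33 to 0.91; exact binomial test, adjusted p = 0.00034), above 97.4% of all kept bins and 95.9% of the 242 bins of like coverage. From the lowest to the highest 20% of partners its observed/expected was 0.810 (0.692 to 0.942), 0.940, 0.987, 1.02 and 1.24 (1.09 to 1.41), which rose at every step. Col1a2, whose product joins that of Col1a1 in the same fibre, had 388 contacts with high-score and 349 with low-score partners. Its log2 ratio of 0.17 (−0.04 to 0.38) did not pass the test (exact binomial test, adjusted p = 0.27). Summed over the 3 fibrillar collagen bins, of which only Col1a1 and Col3a1 passed singly, the log2 ratio was 0.42 (0.28 to 0.57).

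The other matrix genes stood lower than Col1a1 and Col3a1, but Dcn was level with the collagen locus Col1a2, which had 0.17. Dcn had a log2 ratio of 0.16 (−0.05 to 0.38), from 375 contacts with high-score and 343 with low-score partners. Fn1 had 0.02 (−0.19 to 0.23), from 375 and 378 contacts. Postn was the lowest of the 9 at −0.23 (−0.42 to −0.03), from 398 contacts where 444.7 were expected and 473 where 451.5 were expected, and did not pass the adjusted threshold of 0.05 (exact binomial test, adjusted p = 0.081). The 3 together had −0.03 (−0.15 to 0.09).

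The cytoskeleton loci all lay near 0. Acta2 had 0.00 (−0.20 to 0.21), from 392 contacts with high-score and 391 with low-score partners. Tagln had −0.07 (−0.38 to 0.25), from 164 and 174 contacts, and Vim −0.10 (−0.31 to 0.11), from 369 and 398. The 3 together had −0.05 (−0.18 to 0.08). Twist1, in the fit of all bins with contacts, had 64 contacts with high-score and 59 with low-score partners and a log2 ratio of 0.05 (−0.49 to 0.58), too wide to place it.

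Over all 9 bins 2 passed the test on the high side and 0 on the low side. In the whole map 13.4% of bins passed on the high side and 8.46% on the low side, so the count for these loci is close to the background. Their median log2 ratio was 0.02, against −0.04 over all kept bins, whose middle 50% ran from −0.18 to 0.14. The summed contacts gave 0.08 (0.01 to 0.16). That small excess rested on single bins: without Col1a1 it was 0.04 (−0.04 to 0.12), without Col3a1 0.04 (−0.04 to 0.12), and the interval also reached 0 without Col1a2 (−0.01 to 0.15) or without Dcn (−0.01 to 0.15). With the stricter bin filter at 80%, which also removes Col1a1, Col3a1 and Tagln, 0 bins passed and the summed log2 ratio was 0.01.

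**Figure D2:**
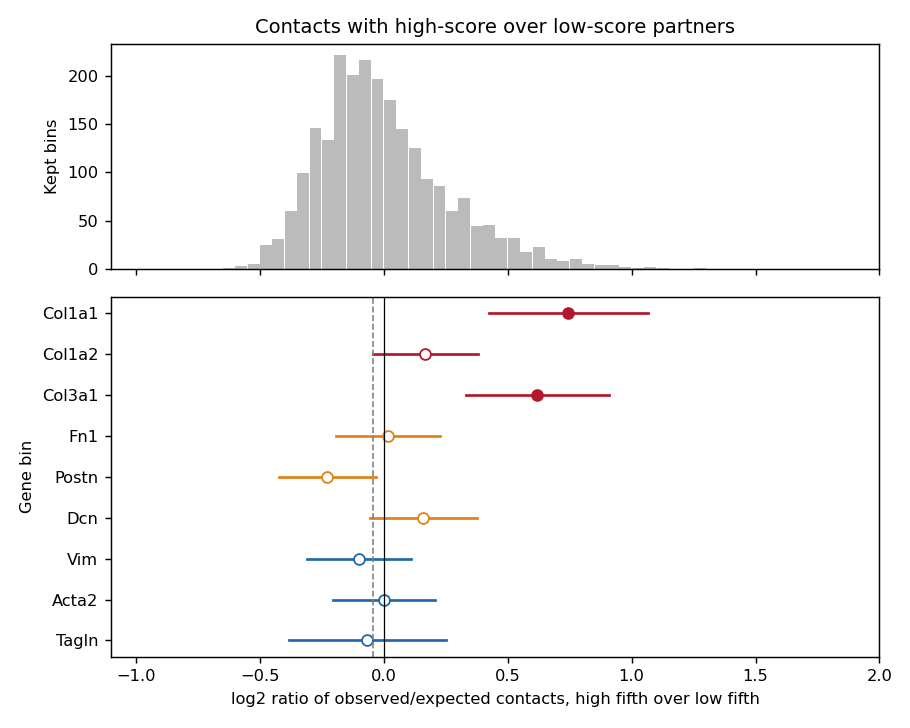
Top, number of kept bins (y axis) by log2 compartment ratio (x axis). Bottom, the log2 ratio of each gene bin with its 95% exact interval, coloured by role as in the coverage plot; filled points passed the adjusted threshold, open points did not, and the dashed line is the median of all kept bins. Col1a1 at 0.74 and Col3a1 at 0.62 lie in the right tail, and the other 7 intervals stay below 0.4.

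Col3a1 and Postn stood apart from the bins around them. Each bin was set against the 3 bins on either side with Fisher's exact test on the contacts with high-score and low-score partners, a test chosen after the ratios were seen. The Col3a1 bin stood alone, 0.73 above its 6 neighbours on the log2 scale (Fisher's exact test, adjusted p = 0.00011). From 3 Mb before to 3 Mb after, the log2 ratios around it were −0.32, 0.02, −0.07, then 0.62 at the locus, then −0.09, 0.01 and −0.20. With a locus taken as 3 Mb, the ratio of Col3a1 was 0.15 and no longer passed (exact binomial test, adjusted p = 0.14).

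Postn was the opposite case, 0.46 below its neighbours (Fisher's exact test, adjusted p = 0.00097). The bin just before it shared the low value, at −0.23, while those 2 and 3 Mb before were at 0.45 and 0.44 and those 1 to 3 Mb after at 0.33, 0.35 and 0.18. The low stretch was therefore 2 bins wide within a higher region. Of the tested bins of the map 6.4% stood above and 5.33% below their neighbours by this test, against 1 above and 1 below among the 9 loci.

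Col1a1 sat at a step. The 3 bins before it had log2 ratios of −0.13, −0.01 and −0.03, and the 3 after it 0.71, 0.87 and 0.77. In the 10 Mb after it 7 of 10 bins passed the test on the high side, against 2 of 9 in the 10 Mb before. Set against both sides together it was 0.40 above its neighbours, which did not pass (Fisher's exact test, adjusted p = 0.096). Dcn also lay on a slope, with 0.57, 0.27 and 0.53 in the 3 bins before it and 0.12, 0.09 and −0.13 in the 3 after it, and its 3 Mb value of 0.28 passed the test (exact binomial test, adjusted p = 3.0e-05). Around Tagln the 3 bins before had −0.12, 0.30 and 0.33 and the 3 after −0.33, −0.28 and −0.17, and the Tagln bin itself did not differ from their sum beyond counting error (Fisher's exact test, adjusted p = 1). Vim, Acta2, Fn1 and Col1a2 differed from their neighbours by −0.06, 0.02, −0.11 and 0.17. Acta2 was called at 3 Mb on the low side, at −0.16 (exact binomial test, adjusted p = 0.029). The share of all bins called at 3 Mb is not given here, so the calls of Dcn and Acta2 have no background beside them.

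**Figure D3:**
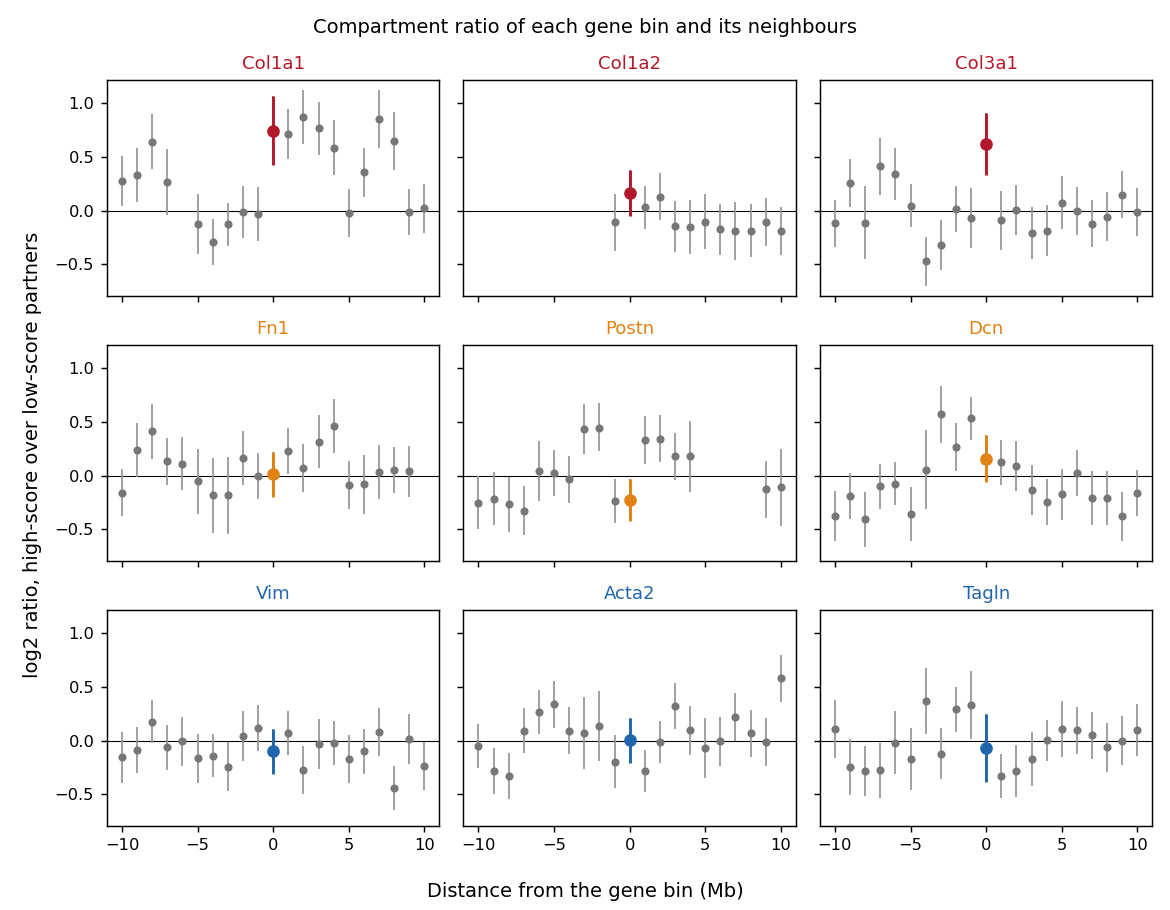
Log2 compartment ratio (y axis) of each gene bin (coloured) and the kept bins up to 10 Mb away (grey) against distance from the gene bin in Mb (x axis), with 95% exact intervals. Col3a1 lies above the 3 bins on either side, and further off the bins 7 and 6 Mb before it were also high (0.41 and 0.34). Col1a1 is the first bin of a high stretch, and Postn part of a low pair of bins between higher ones.

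No excess of contacts among the loci was detected. The 9 bins form 36 pairs, 35 of them on different chromosomes. These 35 pairs had 25 contacts where 27.1 were expected, an observed/expected of 0.924 (95% Poisson interval 0.598 to 1.36). Bins of like coverage (all kept bins within 10% of each locus) had on average 26.2 contacts over the same pairs, so the loci had 0.954 times as many. Of the 35 pairs 19 had a contact, where pairs of like coverage give 17.3. No pair had more than 2 contacts: 16 had 0, 13 had 1 and 6 had 2. Taken as 3 Mb loci the pairs had 258 contacts where 265.1 were expected, or 0.973 (0.858 to 1.10). At increasing distance from the pair of gene bins, observed/expected was 0.979 at 1 Mb, 0.901 (0.813 to 0.997) at 2 Mb, 0.963 at 3 Mb, 1.03 at 4 Mb and 1.06 at 5 Mb, so the gene bins themselves did not form a peak.

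No pair of loci passed the 1-sided exact Poisson test adjusted over 2594953 pairs of the map. In the whole map 2 pairs passed (7.71e-05%). The expected numbers, 0.22 to 1.35 per pair of loci, are so low that only a large excess could pass. Even 8 contacts where 1.18 were expected, for Fn1 with its first partner bin, did not pass. An unadjusted p under 0.05 was found for 0 pairs of loci, against 2.76% of all pairs, so this count is close to the background. The lowest unadjusted p was 0.084 (exact Poisson test), for Col1a1 with Vim, which had 2 contacts where 0.48 were expected. The next highest observed/expected were those of Fn1 with Tagln, at 2 contacts where 0.50 were expected, and Col1a1 with Col3a1, at 1 contact where 0.27 was expected. The interval of each reaches below 1. The 16 pairs with no contact share the lowest rank, and those with the highest expected numbers were Fn1 with Postn (1.35), Postn with Vim (1.30) and Dcn with Vim (1.08).

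Col1a1 and Col1a2, the type I collagen genes, had 0 contacts where 0.46 was expected, and their 3 Mb loci had 3, or 0.512 times the expected number. Col1a2 with Col3a1 had 1 contact where 0.58 was expected. Within the fibrillar collagens the 3 pairs had 2 contacts where 1.32 were expected (1.52; 0.184 to 5.48), and 10 at 3 Mb (0.664; 0.318 to 1.22). All 14 pairs of matrix genes on different chromosomes had 11 contacts where 11.4 were expected (0.965; 0.482 to 1.73). The 3 pairs of cytoskeleton genes, Acta2 with Tagln among them, had 0 contacts where 2.01 were expected, which allows an observed/expected of up to 1.83, and 27 at 3 Mb (1.22; 0.805 to 1.78). Matrix with cytoskeleton loci had 14 contacts over 18 pairs where 13.7 were expected (1.02; 0.560 to 1.72). Each of these intervals includes 1.

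By locus, Col3a1 had the highest level with the other members, 7 contacts where 3.68 were expected (1.90; 0.765 to 3.92), and 1.00 (0.705 to 1.38) at 3 Mb. Dcn had the lowest, 4 contacts where 7.22 were expected (0.554; 0.151 to 1.42). Postn, with the most contacts of all, had 8 where 8.44 were expected. All 9 intervals include 1. Twist1, in the fit of all bins, had 0 contacts with the others where 1.42 were expected. Col3a1 and Fn1, on the same chromosome and 26 Mb apart, had 1 contact where 0.62 was expected.

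**Figure D4:**
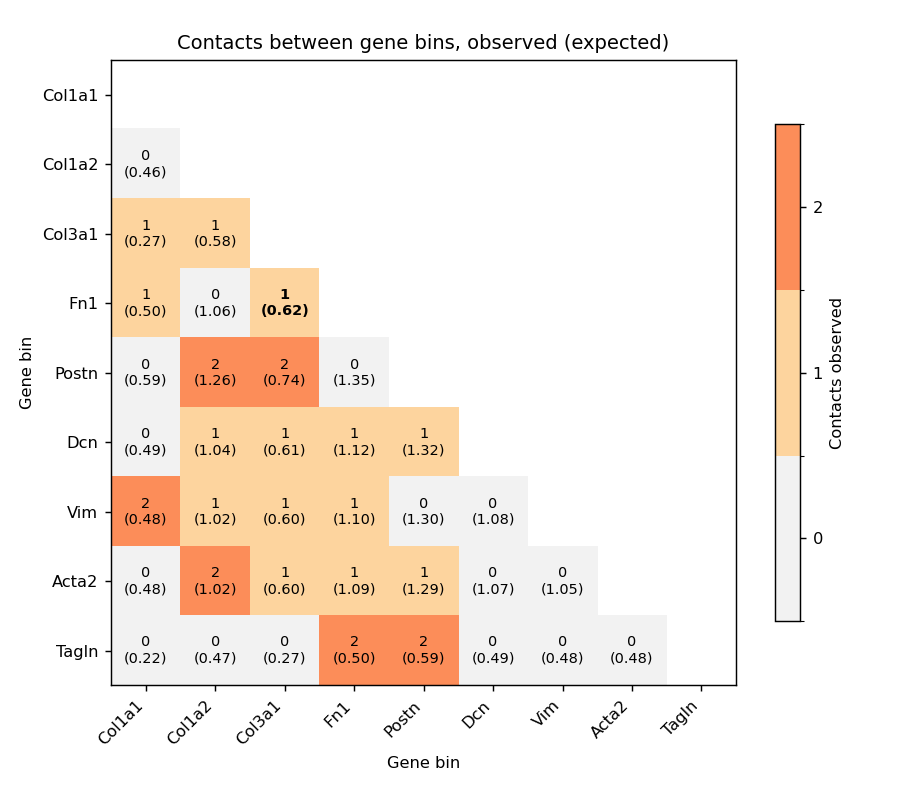
Contacts between gene bins, with the observed number in each cell, coloured by that number, and the expected number in parentheses; both axes list the 9 kept gene bins, and the bold cell is the pair on the same chromosome. The 35 pairs on different chromosomes hold 25 contacts in all, none above 2, and the block of Vim, Acta2 and Tagln holds 0.

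No preference of a locus for a chromosome passed adjustment. Of 171 totals of a locus with another chromosome, 0 passed the 2-sided exact Poisson test adjusted over 44479 such totals, as did 0% of the whole map. At an unadjusted p under 0.05 there were 12 (7.02%), against 4.50% of all totals. The strongest deviation was that of Col1a2 with chromosome 17, 90 contacts where 63.0 were expected (1.43; 1.15 to 1.76; exact Poisson test, unadjusted p = 0.0016). Vim had 134 contacts with chromosome 11 where 102.5 were expected (1.31; 1.10 to 1.55; exact Poisson test, unadjusted p = 0.0033).

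The highest chromosome of Col1a1 was 12, at 1.37 (1.03 to 1.79), and its lowest 4, at 0.709 (0.497 to 0.982). Col3a1 was highest with 19, at 1.37 (0.970 to 1.88), and lowest with 16, at 0.805. Tagln ran from 0.673 with chromosome 17 to 1.34 (1.04 to 1.69) with chromosome 4, the chromosome that was lowest for Col1a1. Fn1 ran from 0.778 (0.630 to 0.951) with chromosome 10 to 1.21 with chromosome 9, and Acta2 from 0.822 with chromosome 15 to 1.21 with chromosome 8. Dcn ran from 0.813 with chromosome 12 to 1.12 with chromosome 11, and Postn from 0.898 with chromosome 17 to 1.16 with chromosome 10. The lowest chromosome of Vim was 12, at 0.817, and that of Col1a2 was X, at 0.756 (0.568 to 0.986). The loci shared no favourite: summed over them, the 20 chromosomes ran from 0.953 (4) to 1.07 (19), and all 20 intervals included 1.

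**Figure D5:**
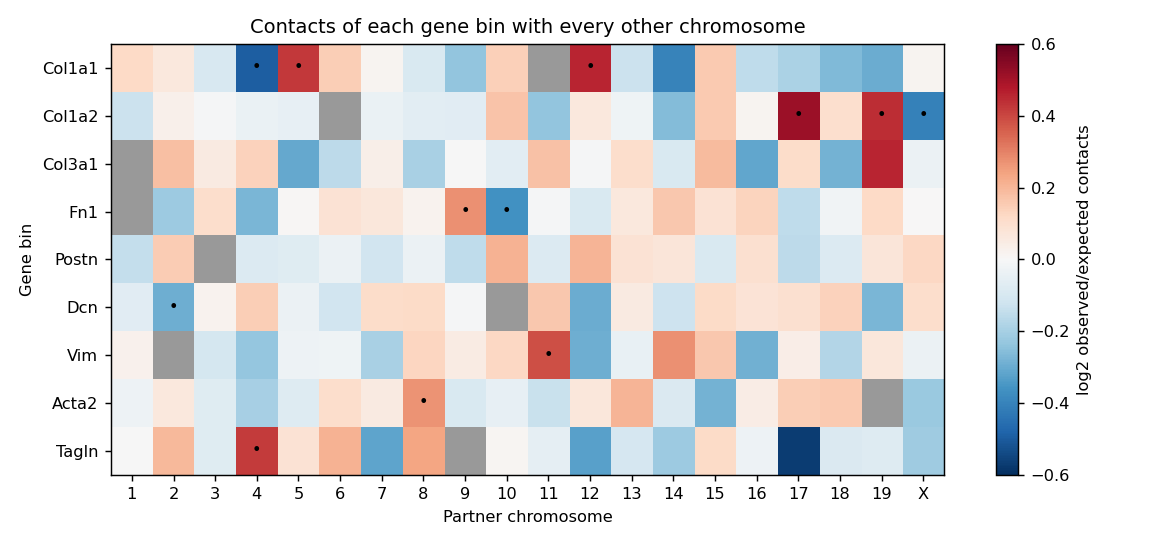
Log2 observed/expected contacts (colour) of each gene bin (y axis) with every other chromosome (x axis); grey cells are the bin's own chromosome and dots mark a 95% Poisson interval that excludes 1, before any adjustment. The 12 dots are scattered over the chromosomes, and Postn and Col3a1 have none.

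No locus passed the test for contacts with chromosome ends, while their sum lay slightly below the expected level at the high ends. With the first 10 Mb of other chromosomes, beside the centromere in the mouse, the 9 loci had 784 contacts (1.04; 0.973 to 1.12), and with the last 10 Mb 1099 (0.942; 0.887 to 0.9998). At the high ends 7 of the 9 loci lay below 1, as did 50.5% of all kept bins. Without Postn the summed high-end value was 0.910 (0.852 to 0.972), and without any one of Col1a2, Col3a1, Fn1, Dcn, Vim, Acta2 or Tagln its interval reached above 1, with values from 0.941 to 0.962. Col1a2, which lies 4 Mb from the low end of chromosome 6, had the highest level with low ends, 114 contacts (1.22; 1.01 to 1.47). Vim, 13 Mb from the low end of chromosome 2, had the lowest with high ends, 124 contacts (0.812; 0.675 to 0.968). Of 18 values, 0 passed the 2-sided exact Poisson test adjusted over 4682 values, as did 0% of the whole map. An unadjusted p under 0.05 was found for 2, those of Col1a2 and Vim just given. The share of all values under that unadjusted threshold is not given here, so these 2 have no background beside them.

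Single partner bins on other chromosomes were no firmer. The lowest unadjusted p of any partner was that of Vim with chromosome 1 from 96000001 to 97000000, at 7 contacts where 0.78 were expected (exact Poisson test, unadjusted p = 1.8e-05, adjusted p = 0.79). Next was Fn1 with chromosome 9 from 31000001 to 32000000, at 8 contacts where 1.18 were expected (exact Poisson test, adjusted p = 0.91). The first partners of the other 7 loci had 4 to 7 contacts and an adjusted p of 1. They lay on chromosome 17 from 44000001 (Col1a1), 13 from 54000001 (Col1a2), 2 from 124000001 (Col3a1), X from 133000001 (Postn), 4 from 118000001 (Dcn), 13 from 72000001 (Acta2) and 2 from 104000001 (Tagln). Partners with no contact made up from 37.1% of the bins tested for Postn to 70.0% for Tagln. Trans profiles of the 36 pairs of loci correlated at −0.03 to 0.04 (Pearson's r over 2007 to 2172 bins, median −0.00), which in counts this sparse is no finding.

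On their own chromosomes the loci met nearby bins more often than expected, Col1a1 most of all. If the map holds contacts with a Cast and a 129 end, as its name can be read, these are contacts between homologous chromosomes. The labels do not state it. Of the 1877655 contacts among kept bins, 1776055 lay between different chromosomes. With bins 1 and 2 Mb away the 9 loci had 54 contacts where 28.8 were expected (1.88; 1.41 to 2.45), and all 9 lay above 1. Over all kept bins the summed value was 1.34, just below the interval of the loci. The median was 1.39 for the loci and 1.21 for all bins, so most bins of the map also lay above 1.

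Col1a1 had 8 such contacts where 1.42 were expected (5.61; 2.42 to 11.1; 2-sided exact Poisson test, adjusted p = 0.018). They lay 1 Mb before (3 contacts), 1 Mb after (2) and 2 Mb after (3). Fn1 had 12 where 3.97 were expected (3.02; 1.56 to 5.28), which did not pass (exact Poisson test, adjusted p = 0.073), and its contacts were spread over all 4 neighbours at 2, 3, 4 and 3. Dcn had 8 where 4.27 were expected. The other 6 loci lay between 1.24 and 1.59, each with an interval that includes 1. In the whole map 1.84% of bins passed on the high side, against 1 of the 9. Without Col1a1 the summed value was 1.68 (1.23 to 2.24) and without Fn1 1.69 (1.22 to 2.29), and both intervals include the 1.34 of all bins. Contacts of a single chromosome with an end assigned to the wrong parent would also lie close by, and their part was not tested.

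Over the full length of their chromosomes the loci had 1018 contacts (1.12; 1.05 to 1.19), against 1.03 over all kept bins, and the median was 1.06 for the loci and 1.03 for all bins. An interval above 1 was found for 4 of the 9 loci and for 5.77% of all kept bins, before any adjustment. Acta2, on the short chromosome 19, had 68 (1.43; 1.11 to 1.82), Col1a1 65 (1.40; 1.08 to 1.79), Col3a1 113 (1.28; 1.05 to 1.53) and Postn 181 (1.17; 1.01 to 1.36). The other 5 ranged from 1.01 for Tagln to 1.06 for Dcn, with intervals that include 1.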

How the data were processed

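Hi-C was run on 6 libraries (2 embryos, 3 technical replicates each), and the authors deposited 1 pooled table, which gives a balanced (iteratively corrected) signal for each listed pair of 1 Mb bins, per the file name. Which libraries entered the pool, the aligner and read filters were not given in the sources used here. HiC-Pro 2.7.8, bedtools and mm9 are named in the submitters' processing notes.

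Dividing each signal by factors solved for its bins gave contacts, whole within 0.01 for all 1365118 pairs listed between different bins, of which 67.7% held a single contact. Pairs not listed counted as 0. PCR copies are not independent molecules, so the 95% intervals (exact Poisson or Clopper-Pearson) cover counting error only. Expected contacts, the score, the bin filter and the tests are described with the results. Every test was run on the whole map, across all bins or pairs, with Benjamini-Hochberg adjustment, and the rows of the loci were read from it. Steps were tested on simulated data. Recovered counts were used in place of the balanced signal because the loci are few and need counting errors.

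The comparison of a bin with its neighbours was added after the data were seen. The members, gene roles and lists were chosen with earlier results of these data known. All 10 members were named. Among pairs the rule named the 3 highest and 3 lowest (ties at 0 were ordered by expected contacts), the pair on the same chromosome, the collagen pairs and Acta2 with Tagln, and for each locus its extreme chromosomes and its first partner bin. Other matrix, cytoskeleton and TGF-beta pathway genes were not placed in bins, since no mm9 gene annotation was used here. Alternatives were the balanced signal, other bin filters, 3 Mb loci, other expected values, other score limits and distances, and each locus left out. Python 3.11.15, numpy 2.4.6, scipy 1.17.1, pandas 2.3.3 and matplotlib 3.10.9 were used. Coordinates are 1-based.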

Additional observations from a re-analysis of the deposited data

Results flagged for a closer look

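Contacts outside the comparisons were present in the Twist1 bin and within the bins of the loci. The Twist1 bin, left out for its few partners, held 352 contacts. The bin before it had 1688 contacts and the bin after it 658. Contacts with both ends in the same bin numbered 8 over the 9 kept loci, where 3.85 were expected from the bin factors, counting each pair of ends once. They lay in the bins of Postn (2), Vim (2), Acta2 (2), Col1a1 (1) and Fn1 (1). The like value over all kept bins is not given here. With bins 1 and 2 Mb away, all kept bins together already had 1.34 times the expected contacts.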

How the results depend on the processing

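The sum of contacts among the loci stayed within its interval under every alternative run, at 0.879 without the bin filter, 0.637 with the filter at 80%, 1.05 in the balanced signal, 0.924 with expected values by chromosome pair and 0.929 by pair of score classes. It ran from 0.770 without Col3a1 to 1.06 without Dcn. The summed compartment ratio ran from 0.04 to 0.14 (log2) leaving out each locus, and was 0.01 with the filter at 80% and 0.163 in the balanced signal, above the upper bound of 0.157; the cause was not tested. With the filter at 80%, 0 loci were called high in place of 2, since Col1a1 and Col3a1 were no longer kept. At 3 Mb 1 locus was called low, Acta2 at −0.16, in place of 0, and the 2 called high were Col1a1 and Dcn in place of Col1a1 and Col3a1; the cause was not tested. In the other settings run with a test (no filter, outer 25% or 10% of partners, score from the whole map), 2 loci were called high and 0 low. Shares of all bins called are given for the main results only. The counts at 3 Mb and in the other settings have no such background beside them. Near contacts on the same chromosome were 1.88 times the expected number over 1 to 2 Mb (1.41 to 2.45), and ran from 1.68 to 1.98 leaving out each locus. They were 2.39 at 1 Mb alone and 1.34 over 1 to 5 Mb. The last value lies below the interval over 1 to 2 Mb, and the cause was not tested. The value of all kept bins is given over 1 to 2 Mb only, so these other distances have no background beside them. The counts of called pairs and of called chromosome totals were 0 under all 3 bin filters. Depth limits every single pair of bins, which has a mean of 0.684 contacts. No paired analysis was possible because the libraries form 1 group in 1 pooled table.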
